A study of Rattus norvegicus with 448 samples.

Results

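This account follows 5 genes of antigen presentation and of resident white blood cells in the livers of outbred rats. They are Cd74 (ENSRNOG00000018735), RT1-Da (ENSRNOG00000032844), RT1-Ba (ENSRNOG00000000451), Ptprc (ENSRNOG00000000655) and Cd68 (ENSRNOG00000037563). The rule that picked them names identifiers and uses no measured value, but earlier results of these data were known when they were chosen. They are 5 of the 16796 genes in the deposited table. All 5 passed the filter on low values that left 12234 genes for the tests. The pairing of these 5 identifiers with symbols came with the choice of the genes, and no table used here pairs the other identifiers with names.

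Liver RNA from rats aged 17 weeks was sequenced as 37 bp paired-end reads, and the study mapped loci for metabolic traits in these animals. Every library was in the same group: snap-frozen liver of outbred rats, with no treatment, sex, diet or genotype in the labels used here. Of the libraries in the labels, 430 had a column in the table through an identifier in common with adipose tissue samples, and the other 18 are not analysed here. No label states that each library is a separate animal, so p-values over libraries measure the spread between these libraries and take them as independent.

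MHC class II molecules carry peptides from ingested proteins to the surface of antigen-presenting cells, where CD4 T cells read them. In the rat the class II alpha chains include RT1-Da, the counterpart of human HLA-DRA, and RT1-Ba, the counterpart of HLA-DQA. Cd74, the invariant chain, binds new class II dimers, blocks their groove and leads them to the endosome. Transcription of class II genes and of Cd74 depends on the coactivator Ciita, which joins the factors RFX, CREB and NF-Y on the X1, X2 and Y boxes of their promoters. Ptprc encodes CD45, the tyrosine phosphatase on the surface of nucleated blood cells, and Cd68 encodes a lysosomal glycoprotein of macrophages. In the liver such cells include Kupffer cells, dendritic cells and lymphocytes, which lie in and beside the sinusoids among far more numerous hepatocytes.

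The promoters of the class II genes are shown because Cd74, RT1-Da and RT1-Ba had the highest correlations with each other among the 5 genes across libraries. The sequences come from RefSeq on the rat build GRCr8 and end before the first base of the annotated gene, and this build may differ from the build used for the deposited values, since that build is not given in the sources used here. All 5 genes were matched by symbol. Capitals mark matches, on either strand, to the Y box core ATTGG, to the X1 box pattern (GNAAC, any 3 bases, then TG) or to TGACGNNA for the X2 box, and each sequence reads 5′ to 3′ on the strand of the gene. Cd74 lies at chr18:56526956-56527070 on the plus strand, RT1-Da at chr20:4515243-4515392 on the plus strand and RT1-Ba at chr20:4576907-4577056 on the plus strand.
Cd74: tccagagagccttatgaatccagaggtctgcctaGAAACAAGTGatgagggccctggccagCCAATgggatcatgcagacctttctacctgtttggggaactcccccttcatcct
RT1-Da: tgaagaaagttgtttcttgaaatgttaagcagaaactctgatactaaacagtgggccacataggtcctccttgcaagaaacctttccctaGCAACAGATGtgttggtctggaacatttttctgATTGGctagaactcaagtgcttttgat
RT1-Ba: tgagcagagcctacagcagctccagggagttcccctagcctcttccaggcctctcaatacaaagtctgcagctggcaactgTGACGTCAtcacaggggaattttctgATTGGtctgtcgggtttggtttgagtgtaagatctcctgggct
In these windows the Cd74 and RT1-Da promoters held an X1 match upstream of a Y match, with 17 and 23 bases between them. The RT1-Ba promoter held the palindrome TGACGTCA, an X2 match on both strands over the same bases, 18 bases upstream of its Y match. The Cd74 Y match lay on the minus strand, as CCAAT, while those of RT1-Da and RT1-Ba lay on the plus strand. The full scan covered 250 bases before a transcript start, and for Cd74 and RT1-Da part of these lay inside the annotated gene. In the scanned bases Cd74 and RT1-Da had no X2 match and RT1-Ba had no X1 match. Cd68 had a single ATTGG match and Ptprc had no match to any of the 3 motifs, so none of the 5 genes held all 3. Such letters are common: of 33469 promoters in RefSeq, 34% held ATTGG, 10.2% the X1 pattern, 6.1% TGACGNNA, and 3.8% both ATTGG and the X1 pattern. The share with both ATTGG and TGACGNNA was not computed. A match describes letters in the window and was not tested as a binding site.

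Depth was recovered from the step size of the values and is a reconstruction, not a deposited count. The libraries held between 357428 and 60960333 recovered reads, with a median of 24250726, and 26 libraries held fewer than 10000000. The number of genes above 0 ranged from 7108 to 16613. The 22 libraries with the fewest genes, at most 14117 genes and 9123379 reads each, are a set 5% of libraries taken by rank. No gap to the rest was looked for, and some other libraries were as shallow, such as LSW_83 with 7276563 reads. Many of the results are given with and without these 22 libraries. Liver identity could not be checked against marker genes, because marker names could not be paired with identifiers. For the same reason the lists of class II chains, their regulators, and markers of macrophages, lymphocytes, endothelial cells and hepatocytes could not be run.

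Cd74 was by far the most abundant of the 5 transcripts. Its level was 37.2 FPKM (a read density per kilobase of gene that is scaled between libraries) in the lowest library, 102.6 in the median library and 412.6 in the highest, and 92.8% of tested genes had a lower level. RT1-Ba ran from 0 through a median of 20.2 to 129.2 FPKM. RT1-Da ran from 1.8 through 18.01 to 78.4 FPKM. Cd68 ran from 0 through 16.3 to 67.5 FPKM. Ptprc was lowest, from 0 through 2.27 to 7.41 FPKM, and only 25.4% of tested genes had a lower level. FPKM is scaled by gene length, so these levels can be compared between genes, with the reservation that rat RT1 genes have near-identical copies between which the counting of reads is uncertain. In bulk liver RNA, fewer cells of a type and less RNA per cell cannot be told apart.

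The order of the levels held in nearly every library for the extremes and in a smaller majority for the middle genes. Cd74 exceeded each of the other 4 genes in 430 of 430 libraries, and its median ratio was 5.62 to RT1-Da, 5.11 to RT1-Ba, 6.53 to Cd68 and 46.04 to Ptprc. RT1-Ba exceeded RT1-Da in 66% of libraries and was below it in 34%, with a mean log2 difference of 0.12 (95% interval 0.08 to 0.16). RT1-Ba exceeded Cd68 in 72.6% of libraries and RT1-Da exceeded Cd68 in 64.4%. All 10 differences had a two-sided sign-flip permutation p of 1e-05 (adjusted 1e-05 over the 10), the smallest that 100000 resamples can give. The p and the interval cover the spread over libraries only. They do not cover an error shared by all libraries, such as in the counting of reads from RT1 copies. RT1-Ba, RT1-Da and Cd68 thus lay close together, with their mean differences of 0.12, 0.27 and 0.39 on the log2 scale all below the SD of those differences over libraries (0.40, 0.65 and 0.71).

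**Figure D1:**
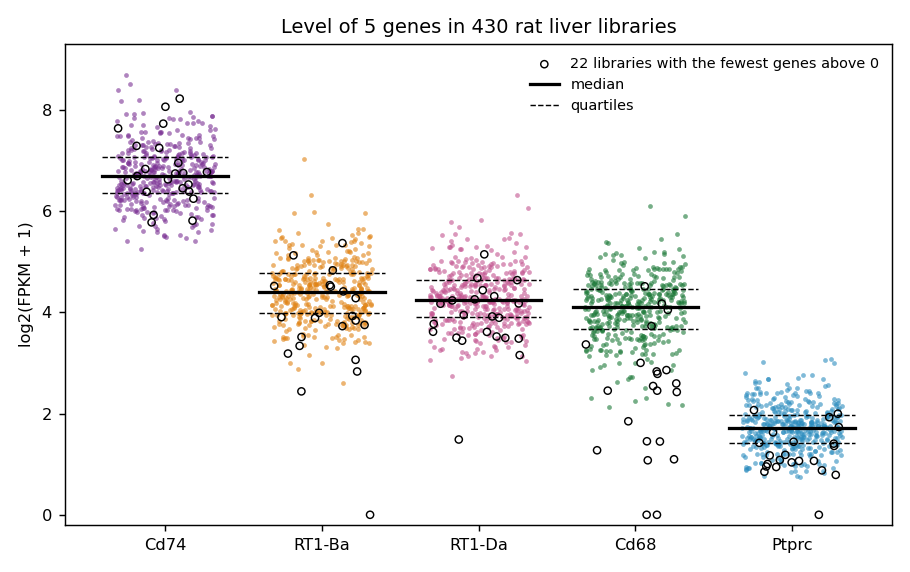
Each point is a library and its level of a gene, log2(FPKM + 1) on the vertical axis, with genes on the horizontal axis (points spread sideways only to be seen). Thick lines are medians, dashed lines quartiles and rings the 22 libraries with the fewest genes; Cd74 lies above the other genes and Cd68 falls low in many of the ringed libraries.

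The spread over libraries differed between the genes. On the log2(FPKM + 1) scale the SD over 430 libraries was 0.75 for Cd68, 0.64 for RT1-Ba, 0.59 for Cd74, 0.57 for RT1-Da and 0.45 for Ptprc, whose low level makes this scale understate its changes. Without the 22 libraries with the fewest genes these SDs lay closer together. They were then 0.605 for Cd68, 0.585 for RT1-Ba, 0.582 for Cd74, 0.554 for RT1-Da and 0.437 for Ptprc. As a share of the mean FPKM, the SD was much alike: 45% for RT1-Da, 45.8% for Cd74, 46.6% for Ptprc, 48.1% for Cd68 and 50.6% for RT1-Ba. The level at the third quartile was 1.66 times that at the first for Cd74, 1.71 for RT1-Da, 1.74 for Ptprc, 1.78 for RT1-Ba and 1.8 for Cd68. Measured against genes of like level, the excess SD of Cd68 was exceeded by 6.4% of tested genes, that of RT1-Ba by 11.7%, of Cd74 by 16.8%, of RT1-Da by 17.1% and of Ptprc by 39.9%. The shares of the mean, the quartile ratios and the excess SD were computed over all 430 libraries only. Counting error alone made up a small part of the variance, from 0.32% for Cd74 (median 3359 recovered reads) to 3.05% for Ptprc (median 276.5 reads). Recovered reads were even in 57% of libraries for Cd74 and up to 83.2% for Cd68. If both mates of a fragment were counted, counting error and the limits for a count of 0 given below are larger than stated.

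The library with the highest class II levels was not the one with the highest Ptprc or Cd68. The library titled LSW_299 had the highest level of all 3 class II genes, with 412.6 FPKM of Cd74, 78.4 of RT1-Da and 129.2 of RT1-Ba. In the same library Ptprc was 2.59 FPKM and Cd68 was 19.6, both near their medians. LSW_78 was high in all 3 class II genes as well, with 362.1 FPKM of Cd74, 65.8 of RT1-Da and 62.2 of RT1-Ba, beside 4.32 of Ptprc and 28.03 of Cd68. LSW_227 had less RT1-Ba beside its Cd74, with 336.8 FPKM of Cd74, 43.1 of RT1-Da and 30.5 of RT1-Ba. LSW_12 held 334.04 FPKM of Cd74, 50.7 of RT1-Da, 78.8 of RT1-Ba and 42.5 of Cd68. The highest Ptprc level, 7.41 FPKM in LSW_241, came with 45.7 FPKM of Cd68 and 168.3 of Cd74. The highest Cd68 level was that of LSW_5, at 67.5 FPKM with 152.1 of Cd74 and 2.59 of Ptprc, followed by LSW_4 at 58.5 FPKM with only 1.18 of Ptprc. At the low end, LSW_104 held 37.2 FPKM of Cd74, 5.73 of RT1-Da, 12.3 of RT1-Ba, 1.20 of Ptprc and 8.26 of Cd68.

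All values of 0 fell in shallow libraries. LSW_225, with 1913806 recovered reads, held 6 reads of RT1-Da, 8 of RT1-Ba and none of Ptprc or Cd68. LSW_166, with 467354 reads, was listed at 0 for RT1-Ba and held 48 reads of Cd74 and 8 of Cd68. LSW_226, with 357428 reads, was listed at 0 for Cd68 and held 36 reads of Cd74 and 4 of Ptprc. A count of 0 allows up to 3 reads, counting error only, which would be 0.447 FPKM of Ptprc and 1.82 of Cd68 in LSW_225, 5.82 of RT1-Ba in LSW_166 and 9.13 of Cd68 in LSW_226. Lower levels were not detectable at these depths.

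The 3 class II genes rose and fell together across libraries, most closely for Cd74 and RT1-Da. Over 430 libraries Cd74 and RT1-Da had a Pearson r of 0.904 and a Spearman rho of 0.912. Without the 2 libraries farthest from the median of Cd74 r was 0.899, and within 4 consecutive blocks of title number it was 0.942, 0.866, 0.906 and 0.905. The log2 difference of both genes had an SD of 0.25, against 0.59 and 0.57 for the genes themselves, and the ratio of Cd74 to RT1-Da lay between 4.52 and 7.65 from the 5th to the 95th percentile. RT1-Da and RT1-Ba, the class II alpha chains, had an r of 0.781 and a rho of 0.806 (0.826, 0.685, 0.858 and 0.818 within the blocks, 0.768 without the 2 farthest). Cd74 and RT1-Ba had an r of 0.728 and a rho of 0.765 (0.827, 0.601, 0.789 and 0.784 within the blocks, 0.714 without the 2 farthest). Leaving out the 22 libraries with the fewest genes gave 0.939, 0.827 and 0.818 for these 3 pairs.

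Correlations of the class II genes with the leukocyte genes were lower in size. RT1-Da had an r of 0.562 with Ptprc and 0.541 with Cd68, and RT1-Ba had 0.503 and 0.494. Cd74 had an r of 0.370 and a rho of 0.358 to Ptprc and an r of 0.464 and a rho of 0.512 to Cd68. Ptprc and Cd68 had an r of 0.566 and a rho of 0.591. The Spearman coefficient was 0.526 for RT1-Da with Ptprc, 0.528 for RT1-Da with Cd68, 0.509 for RT1-Ba with Ptprc and 0.536 for RT1-Ba with Cd68. With the 22 libraries of fewest genes left out, the r with Cd68 was 0.560 for Cd74, 0.557 for RT1-Ba, 0.534 for RT1-Da and 0.587 for Ptprc, so Cd74 was no longer the lowest. The r with Ptprc was then 0.404 for Cd74, 0.515 for RT1-Ba and 0.557 for RT1-Da. Within the blocks these 7 relations ran from 0.262 (Cd74 with Ptprc in the last block) to 0.693 (RT1-Da with Ptprc in the second). Without the 2 farthest libraries they ran from 0.366 to 0.549. All 10 relations, Pearson and Spearman, had a two-sided permutation p of 1e-05, the smallest the resamples can give, and 1e-05 after Benjamini-Hochberg adjustment over the 10. Whether one relation exceeds another was not tested.

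The first principal component of all tested genes moved with some of these genes and with depth. Its r was 0.445 with Ptprc, 0.377 with Cd68, -0.354 with Cd74, -0.110 with RT1-Da, 0.0034 with RT1-Ba and 0.625 with log10 recovered reads. With this component as a covariate the r of Cd74 was 0.629 with Ptprc and 0.690 with Cd68, and that of Cd74 with RT1-Da was 0.931. That of Ptprc with Cd68 was 0.480. The part of depth in the component and in these relations was not tested.

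**Figure D2:**
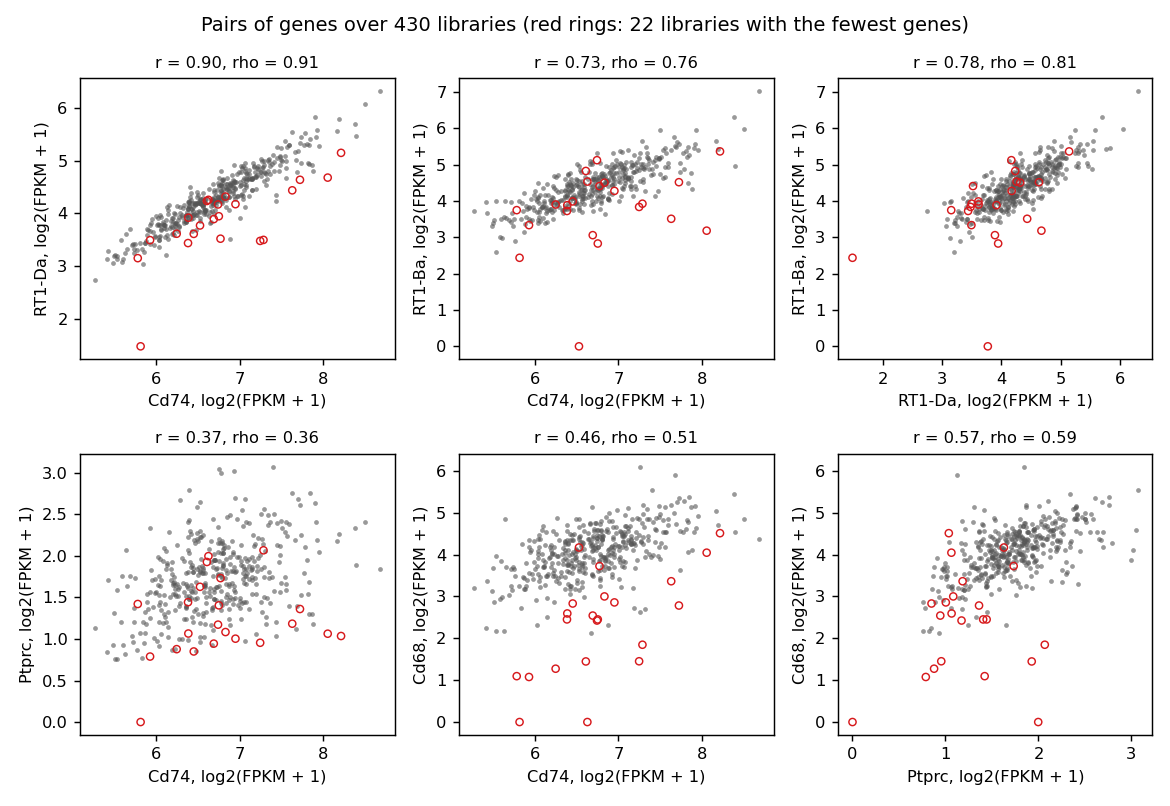
Each panel plots a pair of genes over 430 libraries, both axes in log2(FPKM + 1), with red rings for the 22 libraries with the fewest genes. The points of Cd74 and RT1-Da form a narrow band (r 0.904), those of Cd74 and Ptprc a broad cloud (r 0.370), and ringed libraries hang below several clouds.

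Libraries at the ends of the range were counted from the same values, so these counts restate the correlations above. The overlap to be had from unrelated genes was not computed. Of the 43 libraries highest in Cd74, 31 were also among the 43 highest in RT1-Da and 27 among those highest in RT1-Ba, and 23 were among the highest for all 3 class II genes. The same count was 12 for Cd74 with Ptprc, 19 for Cd74 with Cd68 and 22 for Ptprc with Cd68. Among the 43 lowest, Cd74 shared 32 of 43 libraries with RT1-Da, 25 with RT1-Ba, 15 with Cd68 and 16 with Ptprc. For all 5 genes, 8 libraries were among the 43 highest and 9 among the 43 lowest. No library was among the highest in Cd74 and the lowest in RT1-Da or the reverse, and none stood at opposite ends for Cd68 with RT1-Da, RT1-Ba or Ptprc or for RT1-Da with RT1-Ba. At opposite ends stood 3 libraries for Cd74 and Ptprc, 2 for Cd74 and RT1-Ba, 2 for Cd74 and Cd68, and 1 each for Ptprc with RT1-Da and with RT1-Ba.

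Among all tested genes Cd74 and RT1-Da were each other's closest partners, and both were the closest partners of RT1-Ba. Of the 12233 genes other than Cd74 itself, RT1-Da had the highest r with Cd74, and of those other than RT1-Da, Cd74 had the highest r with RT1-Da. RT1-Ba in turn ranked 3 for RT1-Da and 24 for Cd74. The gene ranking 2 for both Cd74 (r 0.870) and RT1-Da (r 0.799) was ENSRNOG00000033215, singled out after its values were seen, and no name is given for it here. These ranks are over genes measured in the same libraries, so genes are not independent.

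No other member was among the 5 closest partners of Ptprc or of Cd68. ENSRNOG00000010319, singled out after its values were seen, was among the 5 closest of both RT1-Da (r 0.745) and Ptprc (r 0.771). A higher r with Ptprc than that of Cd68 was found in 1.29% of the genes, and the same share was 1.36% for RT1-Da, 2.72% for RT1-Ba and 20.1% for Cd74. For the r with Cd68 these shares were 1.52% for Ptprc, 1.96% for RT1-Da, 3.43% for RT1-Ba and 4.71% for Cd74. Such shares moved with the setting. With the first component as a covariate the share for Cd74 was 0.621% with Ptprc and 0.531% with Cd68. Between Ptprc and Cd68 it rose, to 2.33% for the r with Ptprc and 2.98% for the r with Cd68. Without the 22 libraries with the fewest genes the share for Cd74 was 10.2% with Ptprc and 1.58% with Cd68. The highest r with Ptprc was 0.826 and that with Cd68 was 0.898, the latter with ENSRNOG00000018414, again singled out after its values were seen. In limma fits with a spline of the title number, a rise of Cd74 by 1 on the log2(FPKM + 1) scale went with a log2 rise of 0.88 in RT1-Da (adjusted p 1.66e-155), 0.78 in RT1-Ba (adjusted p 1.291e-69), 0.60 in Cd68 (adjusted p 3.784e-23) and 0.29 in Ptprc (adjusted p 3.252e-15).

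Association with a member was common over all genes, so the calls among the 5 say little in themselves. With Cd74, 36.4% of tested genes were called higher and 41.5% lower by limma at an adjusted p under 0.05, and all 4 other members were among the higher. The corresponding shares were 18.2% higher and 20.6% lower for RT1-Da, 17% and 4.41% for RT1-Ba, 50.6% and 32.4% for Ptprc, and 52.8% and 27.7% for Cd68, again with all other members called higher. Higher calls with an r of at least 0.5 were rarer, 1.84% of genes for Cd74, 1.55% for RT1-Da, 0.956% for RT1-Ba, 2.79% for Ptprc and 3.18% for Cd68. Members at that size were RT1-Da and RT1-Ba for Cd74, all 4 others for RT1-Da, Cd74, RT1-Da and Ptprc for RT1-Ba, RT1-Da, RT1-Ba and Cd68 for Ptprc, and RT1-Da and Ptprc for Cd68. Genes with an r of -0.5 or less were 0.736% for Ptprc and 0.499% for Cd68, and none for the class II genes. With the 22 libraries of fewest genes left out there were 0 for Cd68 and 31 for Ptprc, and 0 for Ptprc with the first component as a covariate. An upper quartile rescaling of the libraries moved the share of calls that were higher from 46.7% to 69.1% for Cd74, from 46.9% to 97.3% for RT1-Da, from 79.4% to 96.6% for RT1-Ba, from 61% to 74.3% for Ptprc and from 65.6% to 85.1% for Cd68. When the 22 libraries with the fewest genes were left out the calls went from 4742 to 8574 for RT1-Da and from 9847 to 5832 for Cd68.

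**Figure D3:**
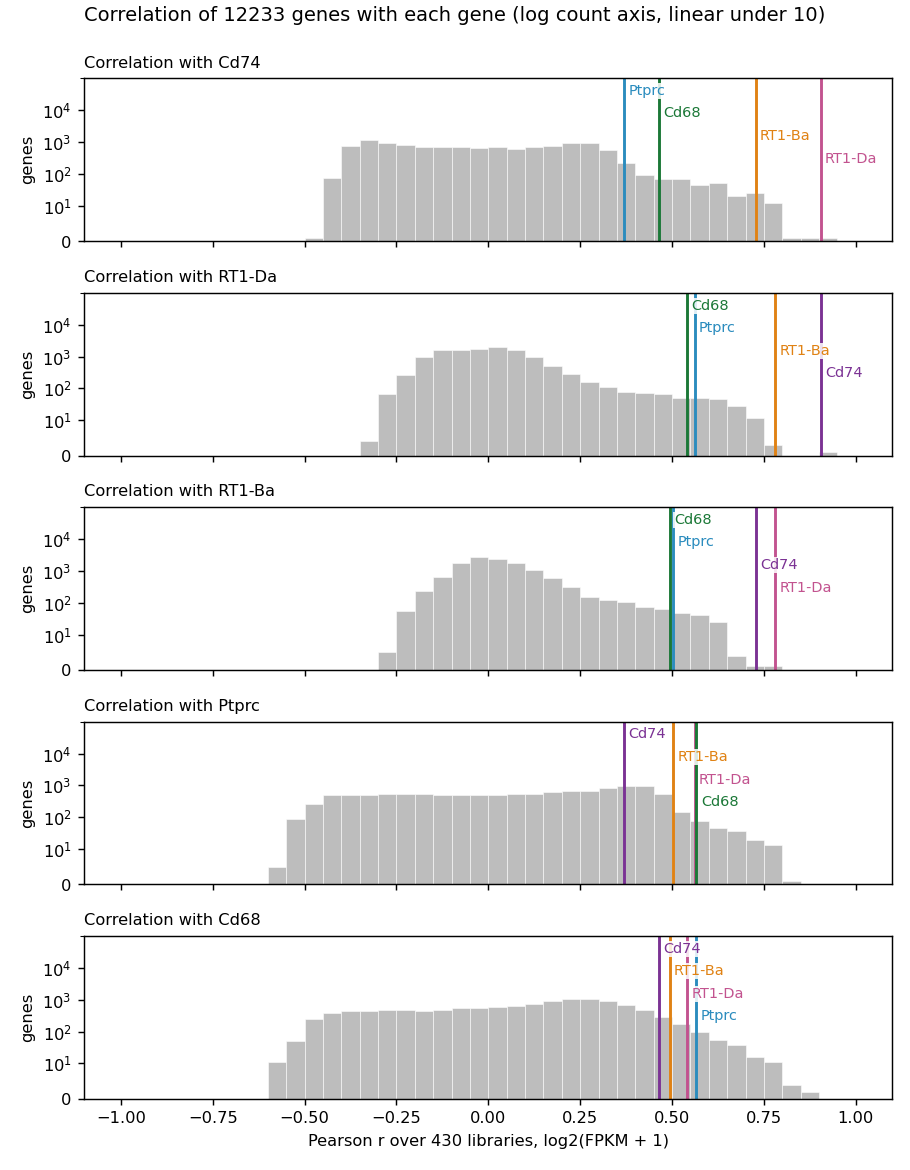
Each panel is a histogram of the Pearson r of 12233 genes with the named gene, with the number of genes on a log axis that is linear below 10 and r on the horizontal axis; coloured lines mark the other members. RT1-Da and Cd74 sit at the far right of each other's histograms, while the lines in the Ptprc and Cd68 panels lie inside the body or the upper shoulder.

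Libraries with the same leading number in their identifier resembled one another in all 5 genes, as they did in many other genes. There were 92 such numbers, 83 held by 2 libraries and 9 by 3, and their meaning is not stated in the labels. By limma's moderated F test, 59.8% of the 12234 tested genes were called, and all 5 members were among them. The intraclass correlation (the share of variance between identifiers) was 0.357 for Cd68 (adjusted p 0.0002379), 0.338 for RT1-Da (adjusted p 0.0006652), 0.334 for RT1-Ba (adjusted p 0.0006655), 0.267 for Cd74 (adjusted p 0.003145) and 0.260 for Ptprc (adjusted p 0.007365). The median over all genes was 0.187. A higher value was found in 9.12% of genes for Cd68, 11.4% for RT1-Da, 11.8% for RT1-Ba, 24.99% for Cd74 and 27.03% for Ptprc. Without the 22 libraries with the fewest genes the values were 0.298, 0.346, 0.305, 0.324 and 0.260 in that order, the median over all genes was 0.123, and 3348 of 12200 genes were called, all 5 members among them.

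The resemblance was loose, as single pairs show. In title order, the first 4 sharing pairs were LSW_1 with LSW_4, LSW_7 with LSW_25, LSW_10 with LSW_13 and LSW_12 with LSW_15. Cd74 was 133.9 and 203.65 FPKM in the first pair, 202.4 and 141.1 in the second, 88.95 and 247.7 in the third and 334.04 and 162.9 in the fourth. RT1-Da was 26.3 and 31.3 in the first pair, 34.7 and 24 in the second, 15.4 and 37.5 in the third and 50.7 and 30.5 in the fourth. The libraries of a pair differed widely in level, and RT1-Da differed in the same direction as Cd74 in all 4 pairs. Over the 110 sharing pairs the correlation within pairs was 0.281 for Cd74, 0.348 for RT1-Da, 0.377 for RT1-Ba, 0.242 for Ptprc and 0.301 for Cd68. Neighbouring pairs that do not share (2350 pairs, titles at most 6 apart) had 0.0803, 0.0609, 0.0369, 0.137 and 0.140, and 89775 distant pairs were between -0.0064 and -0.0038. The median fold difference, on the scale of FPKM + 1, between the libraries of a sharing pair was 1.29 for Ptprc, 1.35 for RT1-Da, 1.39 for RT1-Ba, 1.40 for Cd74 and 1.42 for Cd68. Neighbouring pairs that do not share differed little more, by 1.30, 1.44, 1.46, 1.435 and 1.47 in that order. Of sharing pairs 80.9% were within 1 log2 unit for Cd74, and of neighbouring pairs 81.1%.

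**Figure D4:**
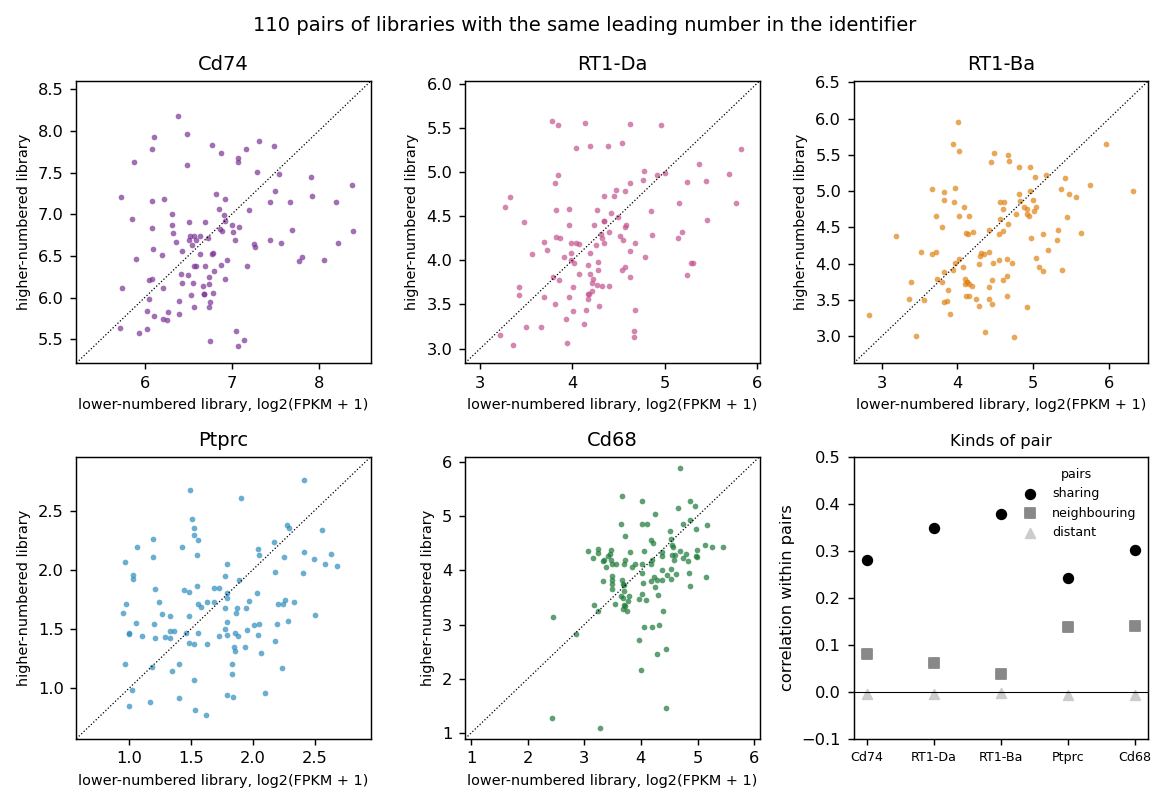
In 5 panels each point is a pair of libraries with the same leading number, with log2(FPKM + 1) of the lower-numbered library on the horizontal axis, the higher-numbered on the vertical axis and equality as the dotted line. The sixth panel gives the correlation within 110 sharing, 2350 neighbouring and 89775 distant pairs, which is highest for sharing pairs in every gene.

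Part of the resemblance lay in the differences between members within a library, which drop what moves both genes alike. RT1-Da minus RT1-Ba on the log2 scale had an intraclass correlation of 0.295 over identifiers (one-sided permutation p 0.00134, adjusted 0.0067 over 5 differences). Cd68 minus Ptprc had 0.249 (permutation p 0.00594, adjusted 0.0148). RT1-Da minus Cd74 had 0.163 (permutation p 0.0531, adjusted 0.0884), RT1-Ba minus Cd74 had 0.135 (permutation p 0.0825, adjusted 0.103) and Cd74 minus Ptprc had 0.047 (permutation p 0.315, adjusted 0.315), so these 3 did not pass. RT1-Ba minus Cd74 reached 0.312 when the 22 libraries with the fewest genes were left out (adjusted p 0.00285, permutation test).

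Along the order of titles, RT1-Ba declined and the other 4 did not pass. The slope of RT1-Ba was -0.0858 on the log2 scale per 100 titles (SE 0.0234, limma adjusted p 0.0075), where 3.89% of the 12234 genes were called lower and 4.29% higher, 8.18% in all. Its median FPKM in the 4 consecutive blocks was 21.5, 22.2, 16.7 and 19.1, so the decline was uneven. With the first 5 principal components as covariates the slope of RT1-Ba was -0.0379 (adjusted p 0.156), and their part in the decline was not tested. The adjusted p was 0.106 for RT1-Da, 0.113 for Ptprc, 0.336 for Cd74 and 0.507 for Cd68, and their slopes were all below 0. Cd68 medians by block were 15.3, 18.4, 14.6 and 15.9 FPKM, and Ptprc medians were 2.25, 2.63, 1.96 and 2.14, both highest in the second block.

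Of the 5 genes, Cd68 had the highest correlation with depth. Its level had an r of 0.487 and a rho of 0.263 with log10 recovered reads, with an r of 0.475 without the 2 farthest libraries (two-sided permutation p 1e-05, the smallest possible, adjusted 2.5e-05 over 10 relations to reads and to genes above 0). In the blocks r was 0.107, 0.656, 0.490 and 0.554, so the relation was weak in the first block. Without the 22 libraries with the fewest genes r fell to 0.155, with an adjusted p of 0.00315 by permutation. Cd68 had a median of 4.65 FPKM in those 22 libraries and 16.4 in the rest, and its SD was 0.605 without them against 0.753 with them. RT1-Ba had medians of 13.9 and 20.3 FPKM in the same libraries, RT1-Da 13.98 and 18.2 and Ptprc 1.19 and 2.31, while Cd74 had 104.1 and 102.6. The r with log10 reads was 0.209 for RT1-Ba (permutation p 0.0001) and 0.206 for Ptprc (permutation p 4e-05). It was 0.0663 for RT1-Da (permutation p 0.168) and -0.110 for Cd74 (permutation p 0.0221). The rho was 0.0147 for RT1-Ba (permutation p 0.761) and 0.173 for Ptprc (permutation p 0.00028). For RT1-Da rho was -0.0854 (permutation p 0.0768) and for Cd74 -0.151 (permutation p 0.00164). With those 22 libraries left out r became -0.0631 for RT1-Ba (adjusted permutation p 0.226) and 0.121 for Ptprc (adjusted 0.0188). It became -0.194 for RT1-Da (adjusted 0.00018) and -0.216 for Cd74 (adjusted 3.33e-05), so the r of RT1-Ba and RT1-Da changed sign. With the number of genes above 0, r was 0.531 for Cd68, 0.267 for Ptprc, 0.243 for RT1-Ba, 0.109 for RT1-Da and -0.0827 for Cd74. The rho was 0.367, 0.371, 0.101, -0.0057 and -0.107 in that order. The r of Cd68 and of Ptprc kept its sign there when the 22 libraries were left out, at 0.253 and 0.310. The part of depth in the other results was not tested beyond these values.

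**Figure D5:**
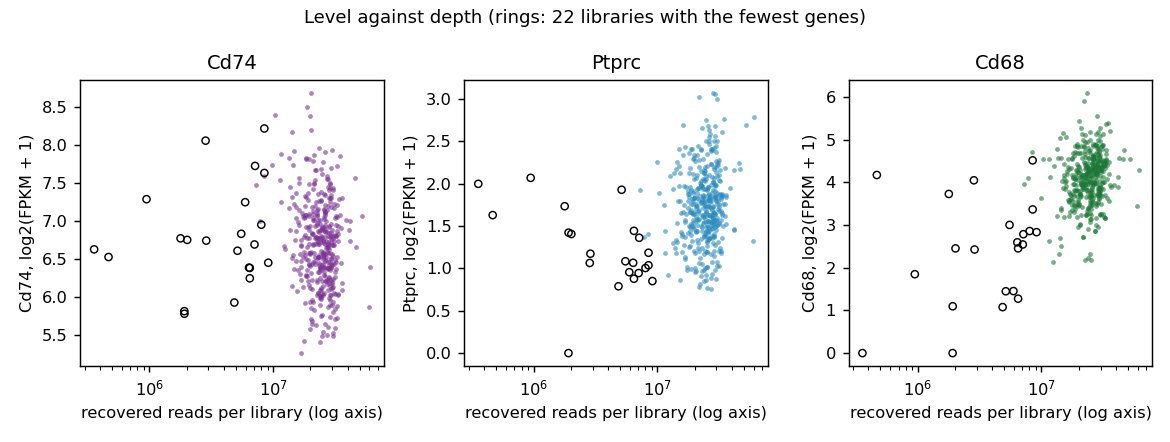
Each point is a library, with recovered reads on a log horizontal axis and log2(FPKM + 1) of Cd74, Ptprc or Cd68 on the vertical axis; rings are the 22 libraries with the fewest genes. Cd68 lies low in most ringed libraries, while Cd74 lies across its whole range in them.

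No gene fell into 2 classes of level. A mixture of 2 normal components was fitted to the 5 levels and to the 5 differences between members, and was called where 4 SDs or more separated the means, the smaller component held 5% of libraries or more and the information criterion gained more than 10. None of the 10 measures was called in any of the 5 settings tried. For Cd68, 14 libraries (3.26%) were in a component at a mean log2 level of 1.63 against 4.08 for the rest, and with upper quartile rescaling it held 19 libraries (4.42%). For RT1-Da minus Cd74, 13 libraries (3.02%) were in a component at a log2 difference of -3.36 against -2.42 for the rest. With the 22 libraries of fewest genes left out, the components lay 2.43 SDs apart for Cd68 and 3.22 for RT1-Da minus Cd74.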

How the data were processed

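The submitters' processing notes name STAR, Picard, featureCounts and DESeq2 with no version and no role, and as to build, annotation and strand, each is not given in the sources used here. Labels list 448 libraries, of which 430 were matched to columns and 193 entered the test of resemblance within identifiers. The deposited table has no unit in its header, and its values were read as FPKM from the values themselves: within a gene and a library the deposited values are whole multiples of a step, and 99.9969% of values came out as whole reads within 0.01. The step follows a size factor (coefficient of variation of the product 0.0002) and not the total (0.0791), so FPKM here are scaled by size factor. Whether both mates of a fragment were counted is not settled by the values. There was 1 further column of values, which was not used.

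Levels were tested on log2(FPKM + 1) for 12234 genes (those that reached 1 FPKM in 10% of libraries), with limma 3.58.1 (R 4.3.3), a variance trend and Benjamini-Hochberg adjustment over all of them at a threshold of 0.05. The resemblance and association fits held a natural spline of the title number with 4 degrees of freedom. Relations and differences between members used permutation tests with 100000 resamples (scipy 1.17.1). Upper quartile rescaling, other pseudocounts and filters, principal components as covariates and leaving out the 22 libraries with the fewest genes were the alternatives, and limma-voom on recovered reads was chosen after seeing the data. The limma fits of resemblance, trend and association were tested on simulated data. So were the permutation tests of correlation and of intraclass correlation and the mixture fit. The recovery of reads, the sign-flip test, the excess SD and the motif scan were not tested in this way. The named genes were the 5 members and, for each, the 5 named genes with the highest and the 2 with the lowest correlation, and since 0 identifiers matched a symbol the rule named only the members. The members and lists were chosen with earlier results of these data known.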

Additional observations from a re-analysis of the deposited data

How the results depend on the processing

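No paired analysis was possible because all libraries are in 1 group, with no second group to pair them with. The leading number of the identifier was not used as a block in the trend, association and depth tests. Nor was it used in the 10 relations between members or the sign-flip tests of order. All of these take libraries as independent, while libraries that share the number resembled one another in all 5 genes. Nothing changed in direction or call for the 10 relations between members (50 alternatives), the resemblance within identifiers (49 alternatives, limma-voom on recovered reads included) or the classes of level (4 alternatives). Ptprc did not pass the 10 FPKM filter and has no value there. The median level of Ptprc was 2.86 on the log2 scale with a pseudocount of 5, which follows from the pseudocount. With the first 5 components as covariates the trend was 0.0081 for Cd74, 0.0075 for Ptprc and 0.0358 for Cd68, all reversed in sign, and -0.0379 for RT1-Ba, no longer called; the cause was not tested. In the relation to depth, the r with log10 reads after upper quartile rescaling was 0.142 for Cd74, reversed, and 0.286 for RT1-Da, now called, and that of Cd74 with genes above 0 was 0.178, reversed. Without the 22 libraries with the fewest genes, r with log10 reads was -0.194 for RT1-Da and -0.0631 for RT1-Ba, r with genes above 0 was -0.136 for RT1-Da and -0.0088 for RT1-Ba, all reversed, r of Cd74 with genes above 0 was -0.198, now called, and the resemblance of RT1-Ba minus Cd74 was 0.312, now called; the cause was not tested. Genes associated with a member numbered 9530 for Cd74, 4742 for RT1-Da, 2619 for RT1-Ba, 10152 for Ptprc and 9847 for Cd68. These counts are of 12233 genes. With the 10 FPKM filter, which tests only 6174 genes, they numbered 4930, 2129, 950 and 5057 for Cd74, RT1-Da, RT1-Ba and Cd68. With the first component they numbered 4222 for Cd74, 4636 for RT1-Ba and 6037 for Ptprc. Without the 22 libraries they numbered 8574 for RT1-Da and 5832 for Cd68, and RT1-Ba had 8747 with upper quartile rescaling. With no filter RT1-Ba had 3944, of 16795 genes tested. The counts at 10 FPKM and with no filter thus differ from the main ones in the number of genes tested as well. At an r of 0.5 or more in size, 1.84%, 1.55%, 0.956%, 3.52% and 3.68% of tested genes were associated in that order. These shares became 1.18%, 0.761%, 0.340% and 3.16% for Cd74, RT1-Da, RT1-Ba and Cd68 at 10 FPKM, 2.33%, 1.77%, 12.2% and 12.5% for RT1-Da, RT1-Ba, Ptprc and Cd68 with upper quartile rescaling, 1.53% and 2.34% for RT1-Ba and Cd68 without the 22 libraries, and 2.11% for Ptprc with the first component; the cause was not tested. Depth limits the shallow libraries: those with a member at 0 held 357428, 467354 and 1913806 reads.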
